A study of Mus musculus with 10 samples.

Results

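The genes examined encode the eukaryotic translation initiation factors (EIF), the 4 kinases that phosphorylate EIF2 and the 3 proteins that bind and block EIF4E. They were all rows of the count table whose symbol began with Eif and a digit from 1 to 6, without the Y-linked Eif2s3y and without numbered pseudogenes. The rule gave 55 of the 23056 gene symbols, and 52 of them passed the filter on low counts and were tested. The 3 members left out of the test were Eif5a2 (50 counts over all libraries), Eif4a3l2 (15) and the pseudogene Eif5al3-ps (9). No member was without counts.

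Liver was sampled 12 hours after partial hepatectomy, with 6 libraries from wild-type (WT) mice and 4 from mice labelled IFRD1-KO (KO). In both groups the median and left lateral lobes had been cut away, and poly(A) RNA was sequenced, so every value compares genotypes after surgery and none gives a change from resting liver. Ifrd1 encodes a transcriptional co-regulator, and the question behind the comparison was what the gene does in liver regeneration. The labels give neither strain, age nor sex, nor the cells in which the gene was removed.

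Initiation of translation begins when EIF2 carries the initiator tRNA to the small ribosomal subunit together with EIF1, EIF1A, EIF3 and EIF5. The cap complex EIF4F, made of EIF4E, EIF4G and the helicase EIF4A, brings the mRNA, and EIF5B joins the large subunit. The main controls are well known: kinases that phosphorylate the alpha subunit of EIF2 and so block its recycling by EIF2B, and 4E-binding proteins that hold EIF4E until the kinase complex mTORC1 phosphorylates them. After hepatectomy hepatocytes make protein for growth before they divide, and both controls act in that period.

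Total counts lay between 12307446 and 17098012 per library, and EIF genes took 0.481% ± 0.0554 (SD, n = 6) of counts in WT and 0.413% ± 0.0481 (SD, n = 4) in KO. Levels are given in CPM, the usual depth-scaled count, with library sizes adjusted by TMM. The targeted gene checked the labels: Ifrd1 lay between 40.2 and 81.7 CPM in WT and between 13.0 and 22.6 CPM in KO. All 8 hepatocyte markers looked for were present, with a summed level of 39148 to 84317 CPM in WT and 49810 to 59484 CPM in KO. Alb, the gene of albumin, is the largest term of this sum, and 1 of the 8 markers, Tat, was called lower in KO (1366 to 4361 CPM in WT and 676 to 1438 CPM in KO). WT replicate 4 stood apart from its group: 41 of the 52 EIF genes (78.8%), and 69.5% of all tested genes, were closer there to their KO mean than to their mean in the remaining WT libraries. Values without it are given beside the results that it moves most. This library was singled out from these same data, and leaving out a WT library near the KO group tends to widen the difference. The smaller p-values without it are therefore a description and not further evidence of a difference.

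No EIF gene passed the test between genotypes over all genes, although most had a lower mean in KO. With edgeR (quasi-likelihood test, Benjamini-Hochberg adjusted p under 0.05) 0 of 52 EIF genes were called, where 182 of 13688 tested genes (1.33%) were, with 0.563% of the tested genes higher and 0.767% lower in KO. An unadjusted p under 0.05 was found for 17 EIF genes, against 26.0% of all tested genes. Of the 17, 15 were lower in KO (14.4% of all genes) and 2 were higher (11.6% of all genes). DESeq2 called 5 EIF genes, all lower in KO (Eif6, Eif3b, Eif3d, Eif3f and Eif4e2), where it called 11.9% of the genes to which it gave an adjusted p, and 7.61% of those genes were called lower in KO. Limma-voom called Eif6 alone, with 2.32% of all genes called.

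The log2 fold change was below 0 for 42 of the 52 EIF genes (80.8%) and for 51.6% of all tested genes. Its median was -0.26 over the EIF genes and -0.02 over all genes. The differences were small: 44 of the 52 were under 1.5-fold in either direction, and the median size without sign was 0.30 on the log2 scale against 0.32 for all genes. With RLE scaling 42 of 52 were below 0 and with upper-quartile scaling 40 were. With 1 surrogate variable in the fit 31 were, and the median over the EIF genes was -0.04.

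**Figure D1:**
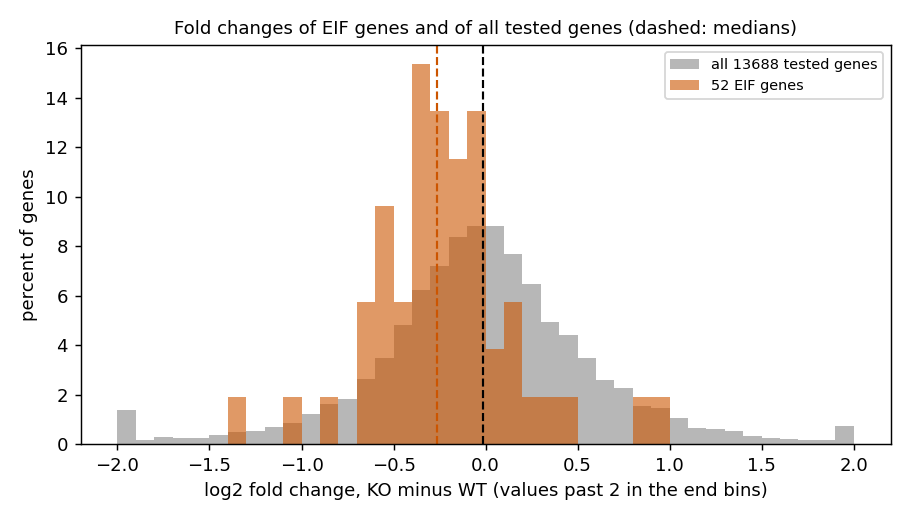
Share of genes (y axis, percent) by log2 fold change of KO against WT (x axis) for the 52 EIF genes and all 13688 tested genes, with dashed lines at the medians. The EIF genes lie to the left of the bulk, with a median of -0.26 against -0.02, and few lie beyond 1 in either direction.

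Without WT replicate 4, 16 EIF genes were called by the edgeR test, where 21.4% of 13514 genes were. Of the 16, 13 were lower in KO (10.9% of all genes): Eif6, Eif3b, Eif3d, Eif4e2, Eif3f, Eif2b4, Eif2b3, Eif1ad, Eif3i, Eif4a1, Eif2b2, Eif1a and Eif4ebp1. The other 3, Eif4a2, Eif4e3 and Eif3k, were higher (10.5% of all genes). Without any other single library no EIF gene was called. The libraries of both groups did not overlap for 2 EIF genes, Eif3b and Eif5a, both lower in KO, against 6.90% of all tested genes in either direction (3.61% higher and 3.29% lower in KO). Without WT replicate 4 they did not overlap for 15 EIF genes, 13 of them lower and 2 higher in KO, against 22.3% of all genes (10.7% lower and 11.6% higher).

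**Figure D2:**
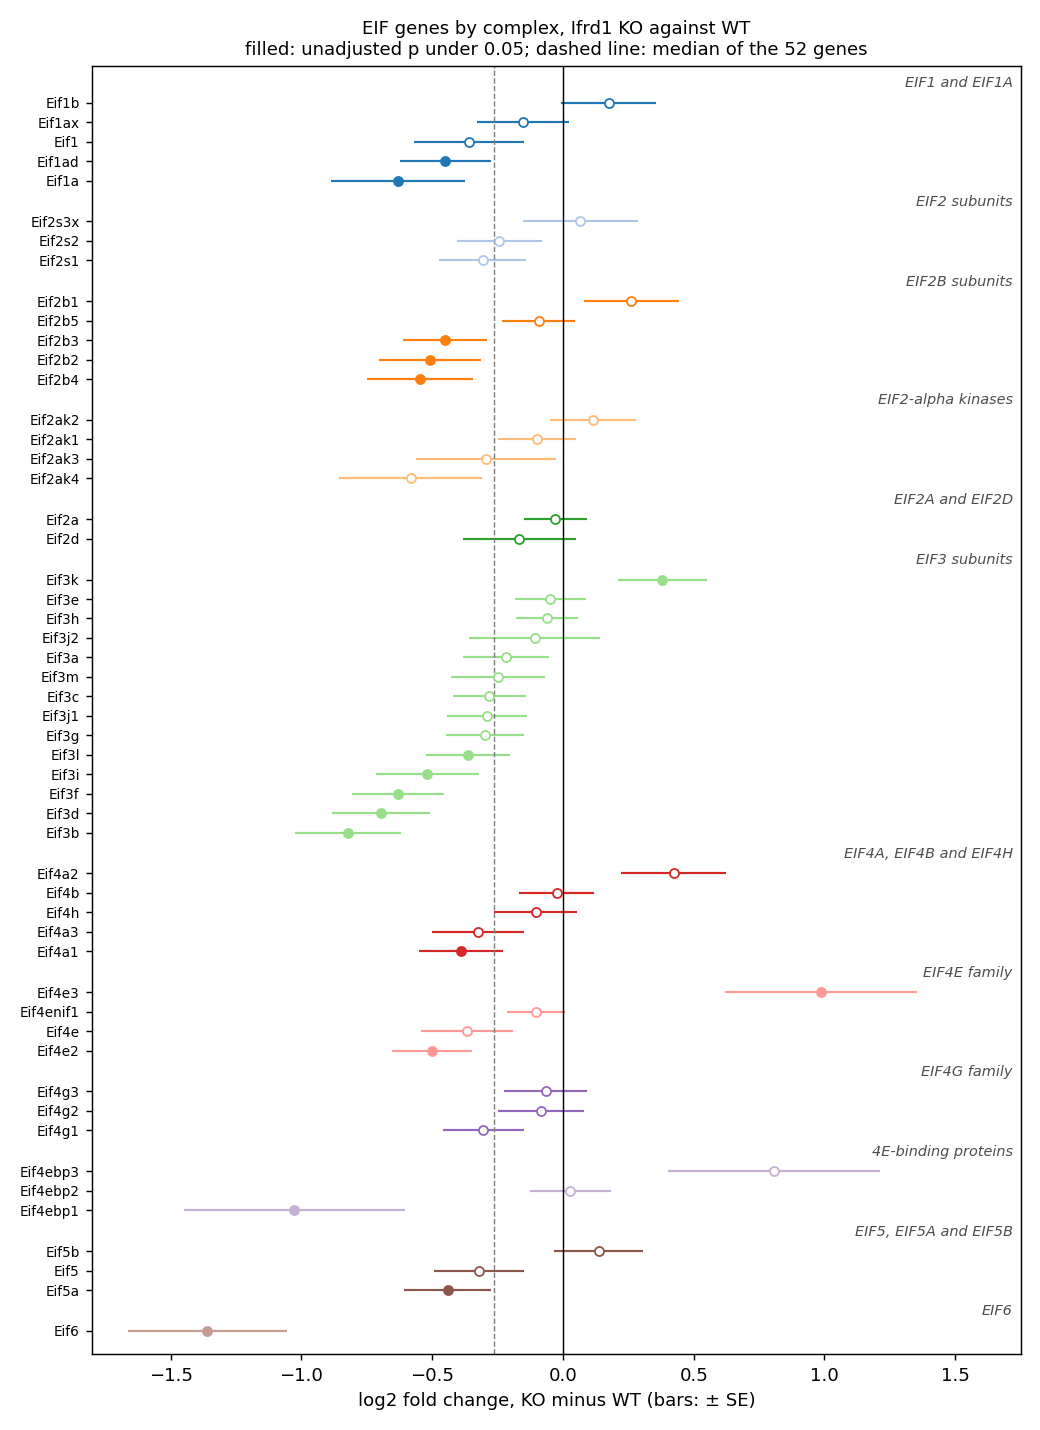
Log2 fold change of KO against WT with its standard error (x axis) for the 52 tested EIF genes, grouped by complex (y axis). Filled points have an unadjusted p under 0.05, and the dashed line is the median of the 52 genes at -0.26. Eif6 and Eif4ebp1 lie farthest to the left, and Eif4e3 and Eif4ebp3 farthest to the right.

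In the group of EIF1, EIF1A and their relatives, 4 of 5 genes had a fold change below 0, against 51.6% of all tested genes, and none was called. Eif1, whose product guards the choice of the start codon, was at 298 ± 55.0 CPM (SD, n = 6) in WT and 232 ± 66.2 CPM (SD, n = 4) in KO. Eif1ad, an EIF1A-like gene, had the smallest p of the group. Its WT libraries ran from 29.6 to 50.4 CPM with a median of 43.3, and its KO libraries were at 31.9, 28.7, 24.8 and 35.2 CPM. WT replicates 3 and 4, at 34.0 and 29.6 CPM, lay inside the KO range (log2 fold change -0.45, SE 0.17, edgeR adjusted p = 0.135; without WT replicate 4 adjusted p = 0.0309). Eif1a, for the EIF1A that works beside EIF1, was at 110 ± 40.2 CPM in WT and 70.9 ± 8.16 in KO, with WT replicate 2 at 164 CPM and WT replicates 3 and 4 at 70.6 and 68.1 CPM, inside the KO range. The close relatives Eif1ax and Eif1b were at 30.9 ± 4.62 and 20.6 ± 4.11 CPM in WT and at 27.8 ± 6.11 and 23.2 ± 3.99 CPM in KO. Reads that fit Eif1 and Eif1b, or Eif1a and Eif1ax, equally well may have been lost or divided between them.

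The 3 EIF2 subunits and the 5 subunits of EIF2B, the factor that recharges EIF2 with GTP, gave no call. Eif2s1 encodes the alpha subunit that the kinases phosphorylate. It lay between 27.4 and 45.9 CPM in WT, with a median of 40.4, and at 37.8, 26.0, 31.8 and 33.0 CPM in KO (log2 fold change -0.31, SE 0.17, edgeR adjusted p = 0.263, and 0.0630 without WT replicate 4). The groups overlapped through WT replicate 4, the lowest WT library. Eif2s2, the beta subunit, was at 62.4 ± 10.8 CPM in WT and 52.7 ± 7.69 in KO, and Eif2s3x, the X-linked gene of the gamma subunit, at 11.5 ± 1.96 and 12.1 ± 4.05 CPM. The Y-linked gene of that subunit, Eif2s3y, which the rule left out, had higher levels than Eif2s3x in every library. It ran from 38.7 to 61.5 CPM in WT and from 54.9 to 83.1 CPM in KO, with KO replicate 4 inside the WT range. Eif2s3x alone thus does not describe the mRNA of the gamma subunit.

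Within EIF2B, 3 subunits had an unadjusted p under 0.05 and lower means in KO, and the other 2 did not. Of all tested genes, 14.4% were lower in KO at that p. Eif2b3, the gamma subunit, had the smallest p: WT libraries ran from 19.1 to 31.3 CPM (median 26.5) and KO libraries were at 20.9, 16.6, 19.7 and 19.6 CPM. Only WT replicate 4, at 19.1 CPM, lay inside the KO range (log2 fold change -0.45, SE 0.16, edgeR adjusted p = 0.115, and 0.0214 without WT replicate 4). Eif2b4, the delta subunit, was at 78.8 ± 20.2 CPM in WT and 53.9 ± 5.47 in KO. Eif2b2, the beta subunit, was at 23.1 ± 5.96 and 16.3 ± 1.55 CPM. Eif2b5, which carries the catalytic site, was at 29.0 ± 3.09 and 27.2 ± 3.87 CPM. Eif2b1, the alpha subunit, was at 24.2 ± 5.98 CPM in WT and 29.0 ± 0.148 in KO, where the 4 libraries lay between 28.9 and 29.2 CPM. The summed level of the 5 subunits was 181 ± 20.1 CPM in WT and 146 ± 9.33 in KO.

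None of the 4 EIF2 kinases passed the test, and their levels overlapped between the groups. Eif2ak4 (GCN2), which senses uncharged tRNA, came nearest: the WT libraries ran from 8.49 to 22.1 CPM (median 13.0), and the KO libraries were at 6.29, 10.6, 10.1 and 9.45 CPM. Its highest level was in WT replicate 2 and its lowest in KO replicate 1 (log2 fold change -0.58, SE 0.27, edgeR adjusted p = 0.201). Eif2ak3 (PERK), the kinase of the endoplasmic reticulum, ran from 11.7 to 26.8 CPM in WT (median 17.1) and was at 12.1, 21.7, 13.3 and 10.8 CPM in KO (log2 fold change -0.29, SE 0.27, edgeR adjusted p = 0.509). KO replicate 2 stood above the other KO libraries and above 5 of the WT libraries. Eif2ak1 (HRI), the haem-regulated kinase, ran from 21.8 to 33.1 CPM in WT (median 24.3) and was at 24.8, 26.7, 23.4 and 23.3 CPM in KO (log2 fold change -0.10, SE 0.15, edgeR adjusted p = 0.706). Eif2ak2 (PKR), the kinase bound by double-stranded RNA, ran from 8.09 to 12.9 CPM in WT (median 11.1) and was at 12.2, 12.3, 10.8 and 11.2 CPM in KO (log2 fold change 0.11, SE 0.16, edgeR adjusted p = 0.691). WT replicates 1 and 2 had the highest Eif2ak1 levels, 31.1 and 33.1 CPM, and all 8 other libraries lay between 21.8 and 26.7 CPM. Eif2a and Eif2d, whose products can deliver tRNA without EIF2, did not pass either. Of these, Eif2d had the smaller p: its WT libraries ran from 16.2 to 38.5 CPM (median 31.2) and its KO libraries were at 30.8, 23.5, 28.4 and 23.4 CPM (log2 fold change -0.17, SE 0.22, edgeR adjusted p = 0.658). All 4 KO libraries lay inside the WT range.

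EIF3, the large scaffold on the small subunit, held several of the EIF genes with the smallest p. Of 14 EIF3 genes, 13 had a fold change below 0, against 51.6% of all tested genes. Of the 13, 5 had an unadjusted p under 0.05, and 14.4% of all tested genes were lower at that p. Eif3k was the exception, with a higher mean in KO. The summed level was 1178 ± 121 CPM in WT and 936 ± 91.0 in KO. WT replicate 4, at 955 CPM, was the lowest WT library and lay inside the KO range of 852 to 1025 CPM, and the other 5 WT libraries lay between 1130 and 1287 CPM.

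Eif3b, a core subunit that holds the complex together, lies on chromosome 5 (140419328 to 140443360, plus strand, GRCm38). Its WT libraries ran from 97.9 to 227 CPM with a median of 154, and its KO libraries were at 94.6, 87.2, 92.6 and 84.6 CPM. The groups did not overlap with TMM scaling, although with upper-quartile scaling they did, WT replicates 5 and 6 were highest, and the KO values lay within a narrow range. The log2 fold change was -0.82 (SE 0.20, edgeR adjusted p = 0.0579), and -0.93 without WT replicate 4 (edgeR adjusted p = 0.00297). Eif3d, the subunit that can bind the cap itself (chromosome 15, 77958998 to 77970813, minus strand), ran from 75.8 to 149 CPM in WT (median 118) and was at 79.4, 62.6, 66.4 and 79.9 CPM in KO. Only WT replicate 4 lay inside the KO range (log2 fold change -0.69, SE 0.19, edgeR adjusted p = 0.0669, and 0.00488 without that library). An antisense gene, Gm17638, covers 43.3% of its exon bases, and without a stated strand setting the reads of both cannot be told apart. Eif3f (chromosome 7, 108934417 to 108942951, plus strand), a subunit with a protease-like fold, ran from 52.7 to 89.9 CPM in WT (median 75.5) and was at 57.0, 37.1, 44.5 and 53.0 CPM in KO (log2 fold change -0.63, SE 0.18, edgeR adjusted p = 0.0707). Here too the overlap came from WT replicate 4 alone, and without it the edgeR adjusted p was 0.00883.

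Eif3i and Eif3l were the remaining 2 of the 5, at 68.7 ± 15.1 and 58.5 ± 9.08 CPM in WT and 47.9 ± 10.1 and 45.5 ± 7.59 CPM in KO. Eif3k, a small peripheral subunit that binds next to Eif3l in the complex, was at 55.1 ± 9.27 CPM in WT and 71.8 ± 15.1 in KO (log2 fold change 0.38, SE 0.17, edgeR adjusted p = 0.178, and 0.0480 without WT replicate 4). KO replicate 4 reached 94.0 CPM, and WT replicate 4, at 71.9 CPM, was the only WT library inside the KO range. Within each library, the ratio of Eif3k to Eif3b counts was 0.381 ± 0.181 in WT and 0.805 ± 0.204 in KO. It lay between 0.684 and 1.11 in KO, at 0.735 in WT replicate 4 and at 0.230 to 0.393 elsewhere in WT. This ratio was chosen after the values were seen and is a description. The subunits Eif3e and Eif3h differed least in mean: Eif3h was at 91.4 ± 4.68 CPM in WT and 87.7 ± 5.41 in KO, and Eif3e at 80.1 ± 8.85 and 77.5 ± 7.77 CPM. Eif3a, the other core subunit, was at 149 ± 29.0 and 128 ± 8.44 CPM. Eif3j2 (309 counts in all) is a near copy of Eif3j1 (5823 counts), so its values are uncertain.

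**Figure D3:**
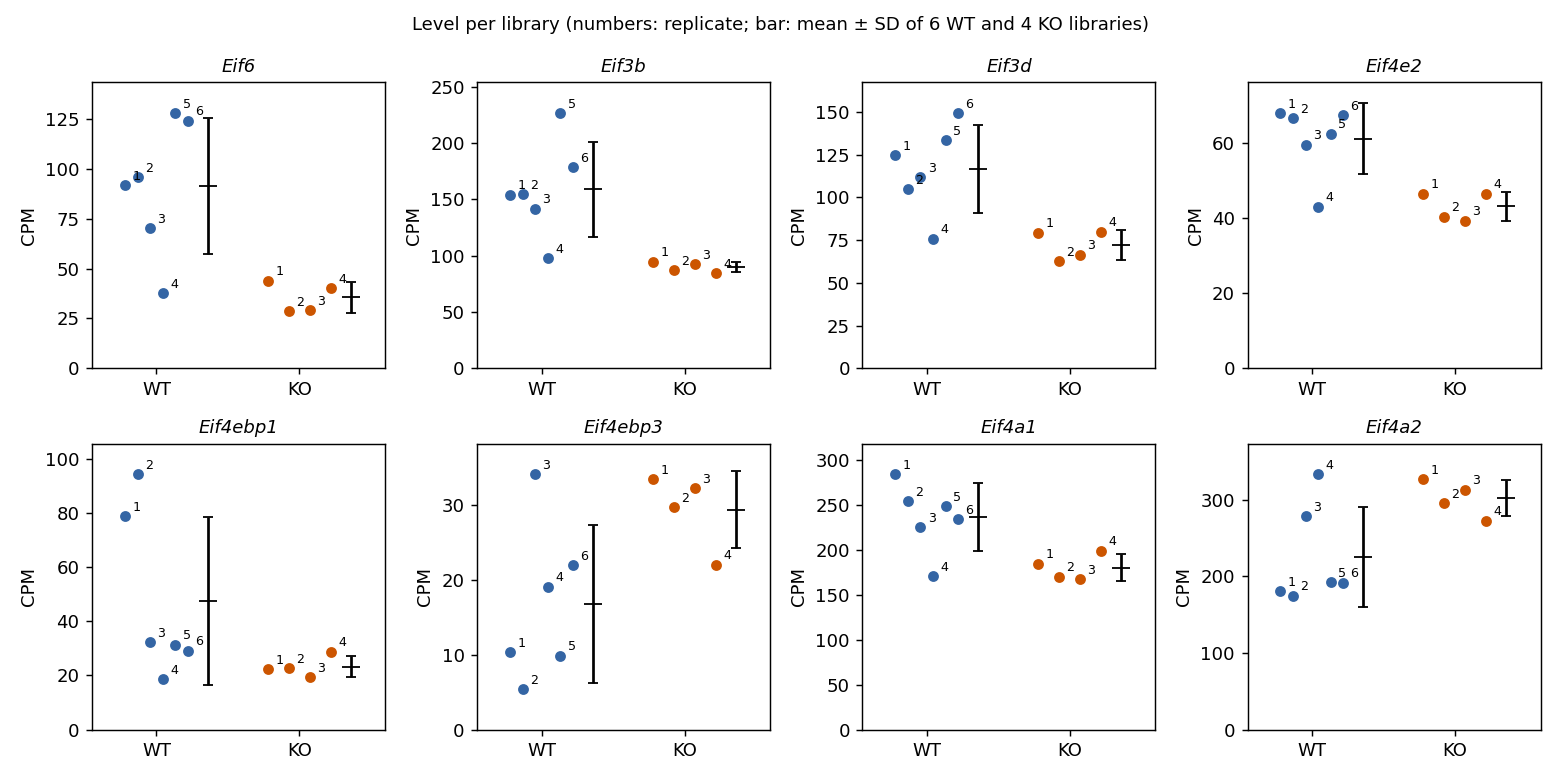
CPM (y axis, from 0) of 8 EIF genes in each library, with the replicate number beside each point and the mean ± SD of 6 WT and 4 KO libraries as a bar. In Eif6, Eif3d, Eif4e2 and Eif4a1, WT replicate 4 lies among the KO libraries. In Eif4ebp1 the high WT mean comes from WT replicates 1 and 2.

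A few of the 42 EIF genes (of 52) with a fold change below 0 were picked for a look at their upstream bases. Eif6 and other genes with a smaller p than Eif4a1 were left out, and shared regulation was not tested. The bases before the start are shown for the 3 EIF3 genes with the smallest p and for the helicase gene Eif4a1. They are the 250 bases upstream of the farthest upstream RefSeq start on GRCm38.p6, read 5′ to 3′ on the gene's strand, for Eif3b (chr5:140419055-140419304, plus strand), Eif3d (chr15:77970825-77971074, minus strand), Eif3f (chr7:108934165-108934414, plus strand) and Eif4a1 (chr11:69672424-69672673, minus strand). Capitals mark any match, on either strand, to CACGTG (the E-box that MYC and MAX can bind) or CCGGAAGT (a site of the ETS family), and a match is a run of letters, not a shown binding site.
Eif3b: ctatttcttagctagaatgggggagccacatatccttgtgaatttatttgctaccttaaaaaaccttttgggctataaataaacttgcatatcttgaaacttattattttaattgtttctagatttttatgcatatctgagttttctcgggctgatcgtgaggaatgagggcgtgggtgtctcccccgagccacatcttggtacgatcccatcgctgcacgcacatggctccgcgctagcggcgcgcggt
Eif3d: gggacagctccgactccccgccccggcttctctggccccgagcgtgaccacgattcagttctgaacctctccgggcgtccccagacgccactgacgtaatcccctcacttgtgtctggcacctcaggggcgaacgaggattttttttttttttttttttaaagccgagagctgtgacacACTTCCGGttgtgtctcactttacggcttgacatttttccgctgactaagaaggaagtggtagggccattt
Eif3f: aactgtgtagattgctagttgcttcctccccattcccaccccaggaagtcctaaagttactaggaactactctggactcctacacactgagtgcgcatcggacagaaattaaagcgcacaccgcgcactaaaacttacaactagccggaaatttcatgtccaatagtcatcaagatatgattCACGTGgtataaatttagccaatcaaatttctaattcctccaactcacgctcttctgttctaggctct
Eif4a1: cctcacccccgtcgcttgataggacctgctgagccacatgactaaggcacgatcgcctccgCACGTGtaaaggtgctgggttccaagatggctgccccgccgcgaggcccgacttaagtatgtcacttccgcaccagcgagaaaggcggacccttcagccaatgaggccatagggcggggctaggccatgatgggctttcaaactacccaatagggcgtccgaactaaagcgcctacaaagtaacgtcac
Eif3f and Eif4a1 held 1 E-box each, Eif3d held 1 CCGGAAGT match on the opposite strand, and Eif3b held none of these letters in this window. Of the 55 members, 42 had a promoter of 300 bases (250 before to 50 after the start) in the RefSeq table. CACGTG was in 8 of the 42 (19.0%), in 7.24% of all 27025 promoters in the table and in 10.2% of those of tested genes. CCGGAAGT, whose other strand reads ACTTCCGG, was in 7 of 42 (16.7%), against 3.99% of all and 8.39% of those of tested genes. TGATGNAA, a composite that ATF4 can bind, was in 1 of 42 (Eif2s3x, 2.38%), against 4.06% and 2.21%. None of the 3 motifs is contained in another. The promoters with CACGTG were those of Eif1b, Eif3a, Eif3f, Eif3k, Eif4a1, Eif4g1, Eif4h and Eif5a2, and they include genes with a higher mean in KO (Eif3k and Eif1b) as well as a lower one.

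The helicase group EIF4A held 2 near relatives whose means differed in opposite directions. Eif4a1, the main initiation helicase (chromosome 11, 69666936 to 69672423, minus strand), ran from 171 to 284 CPM in WT (median 242) and was at 185, 170.1, 168 and 199 CPM in KO. The overlap came from WT replicate 4, the lowest WT library (log2 fold change -0.39, SE 0.16, edgeR adjusted p = 0.153). Eif4a2 (chromosome 16, 23107444 to 23114136, plus strand), its relative, ran from 175 to 333 CPM in WT (median 192) and was at 327, 295, 313 and 272 CPM in KO (log2 fold change 0.42, SE 0.20, edgeR adjusted p = 0.206). WT replicate 3, at 278 CPM, lay inside the KO range, WT replicate 4, at 333 CPM, above it, and the other 4 WT libraries between 175 and 192 CPM. Without WT replicate 4 the log2 fold changes were -0.47 for Eif4a1 (edgeR adjusted p = 0.0343) and 0.57 for Eif4a2 (edgeR adjusted p = 0.0315).

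The ratio of Eif4a2 to Eif4a1 counts, chosen after the values were seen, was 1.02 ± 0.504 in WT and 1.68 ± 0.218 in KO. In KO it lay between 1.37 and 1.87. The ratio was 1.95 in WT replicate 4, 1.23 in WT replicate 3 and 0.637 to 0.818 elsewhere in WT, and only WT replicate 4 was not below every KO library. A pseudogene row for this family, Eif4a-ps4, held 39.6 to 92.1 CPM, and reads of the helicase genes may have been divided with it. Eif4a3, the helicase of the exon junction complex, was at 46.7 ± 9.87 CPM in WT and 37.2 ± 5.45 in KO. The cofactors Eif4b and Eif4h were at 106 ± 16.6 and 123 ± 18.2 CPM in WT and at 104 ± 4.33 and 114 ± 16.8 CPM in KO. The summed level of the group was 737 ± 54.2 CPM in WT and 738 ± 33.5 in KO.

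Of the cap-binding proteins, Eif4e2 had the smallest p. Its product (4EHP) binds the cap but joins EIF4G poorly and is known for silencing mRNAs. WT libraries ran from 43.1 to 68.1 CPM (median 64.6) and KO libraries were at 46.6, 40.5, 39.4 and 46.6 CPM. WT replicate 4 was the lowest WT library and the only one inside the KO range (log2 fold change -0.50, SE 0.15, edgeR adjusted p = 0.0845; without that library -0.58, adjusted p = 0.00763). Eif4e itself was at 58.8 ± 12.6 CPM in WT and 45.6 ± 4.35 in KO, with WT replicates 5 and 6 at 42.2 and 47.8 CPM among the KO libraries and WT replicate 4 above them at 54.9 CPM. Eif4e3, a minor cap-binding relative, was at 1.15 ± 0.519 and 2.30 ± 0.561 CPM (log2 fold change 0.99, SE 0.37, edgeR adjusted p = 0.127, and 0.0330 without WT replicate 4) on 236 counts in all. It shares 14.8% of its exon bases with the overlapping gene Gm20696, so this value is uncertain. Eif4enif1, the transporter that carries EIF4E into the nucleus, was at 38.7 ± 2.17 and 36.0 ± 0.777 CPM.

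The EIF4G scaffolds overlapped between the groups. Eif4g1, the main scaffold, ran from 211 to 284 CPM in WT (median 271) and was at 223, 187, 185 and 233 CPM in KO (log2 fold change -0.30, SE 0.15, edgeR adjusted p = 0.233). WT replicates 3 and 4, at 211 and 216 CPM, lay inside the KO range. Eif4g2 (DAP5), which lacks the EIF4E site, was at 333 ± 42.5 and 314 ± 54.2 CPM, and Eif4g3 at 113 ± 15.8 and 108 ± 17.6 CPM.

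None of the 3 genes of 4E-binding proteins passed the test, and their means differed in opposite directions. Eif4ebp1 (chromosome 8, 27260329 to 27276674, plus strand) encodes the best known of these inhibitors. It was at 78.8 and 94.2 CPM in WT replicates 1 and 2, and at 32.3, 18.6, 31.4 and 29.1 CPM in WT replicates 3, 4, 5 and 6. The KO libraries were at 22.4, 22.6, 19.3 and 28.8 CPM. The WT mean of 47.4 ± 31.0 CPM thus rested on 2 libraries, and WT replicate 4 lay below every KO library. The log2 fold change was -1.03 (SE 0.42, edgeR adjusted p = 0.157), and without WT replicate 4 it was -1.19 (edgeR adjusted p = 0.0438). With 1 surrogate variable it was 0.48.

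Markers of other cells were also uneven in the same WT libraries. WT replicate 2 had 235 CPM over 7 lymphocyte and plasma cell markers, against at most 6.87 CPM in every other library, and 154 CPM over 6 monocyte and neutrophil markers, against at most 39.3 CPM. In WT replicate 2, Igkc gave 199 CPM and Jchain 34.3 CPM of the lymphocyte and plasma cell sum, and each other marker of that list was at most 0.378 CPM. WT replicate 1 had 283 CPM over 5 cholangiocyte markers, against at most 98.2 CPM elsewhere. Spp1 alone gave 247 CPM of this sum. Krt19, Krt7, Epcam and Sox9 were each higher in another WT library than in WT replicate 1. KO libraries lay between 2.77 and 4.55, between 9.53 and 17.6 and between 42.1 and 65.3 CPM for these 3 lists. None of the markers was at 0 in all libraries, and their part in the Eif4ebp1 levels was not tested. In liver tissue, fewer cells of a type and less RNA per cell cannot be told apart.

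Eif4ebp3 (chromosome 18, 36664060 to 36665917, plus strand) had a higher mean in KO. It was at 10.3 and 5.37 CPM in WT replicates 1 and 2, and at 34.0, 19.1, 9.84 and 21.9 CPM in WT replicates 3, 4, 5 and 6. The KO libraries were at 33.4, 29.7, 32.2 and 22.0 CPM, and WT replicate 3 lay above them all, while the other 5 WT libraries lay below them, replicate 6 by a narrow gap (log2 fold change 0.81, SE 0.41, edgeR adjusted p = 0.230). With WT replicate 3 left out the value was 1.14 (edgeR adjusted p = 0.0961), the largest of all settings. That library was singled out because it lay above the KO libraries, so this value is a description and not further evidence. With 1 surrogate variable the log2 fold change of Eif4ebp3 was -0.37. A protein-coding gene model on the same strand shares 67.3% of the exon bases of Eif4ebp3, so part of its reads may belong to the longer transcript. Eif4ebp2, the third inhibitor, ran from 58.3 to 96.0 CPM in WT (median 79.9) and was at 80.0, 88.5, 73.5 and 87.3 CPM in KO (log2 fold change 0.03, SE 0.15, edgeR adjusted p = 0.929). The ratio of Eif4ebp3 to Eif4ebp1 counts was 0.0570 in WT replicate 2 and 0.131 in WT replicate 1, 0.313 to 1.05 in WT replicates 3 to 6, and between 0.762 and 1.67 in KO. The summed level of the 3 genes was 145 ± 37.6 CPM in WT and 135 ± 6.90 in KO.

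Of the factors of the last steps, Eif5a was lower in every KO library than in any WT library. EIF5A, the only known protein with the amino acid hypusine, helps the ribosome through difficult stretches and at termination. The gene (chromosome 11, 69916714 to 69921958, minus strand) ran from 353 to 498 CPM in WT (median 402) and was at 341, 269.7, 258 and 347 CPM in KO. The gap between the groups was narrow, with WT replicates 4 and 5 at 354 and 353 CPM beside KO replicates 4 and 1 (log2 fold change -0.44, SE 0.17, edgeR adjusted p = 0.131). Eif5, which triggers GTP hydrolysis by EIF2, was at 376 ± 77.4 CPM in WT and 301 ± 10.5 in KO, with WT replicates 1 and 2 at 440 and 497 CPM. Eif5b, the subunit-joining GTPase, was at 114 ± 23.9 and 125 ± 15.6 CPM. Its WT mean held 1 high library, WT replicate 4 at 162 CPM, while the other 5 lay between 101 and 113 CPM.

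Eif6 had the smallest p of all EIF genes. EIF6 binds the large ribosomal subunit, is needed to build it and keeps it from joining the small subunit too early. The gene lies on chromosome 2 (155819832 to 155826925, minus strand). In WT it was at 91.7, 96.0, 70.2, 37.6, 128 and 124 CPM in replicates 1 to 6, and in KO at 44.0, 28.7, 29.2 and 40.1 CPM. WT replicate 4 lay inside the KO range, and every other WT library lay above it. The log2 fold change was -1.36 (SE 0.30), a 2.57-fold lower mean, with an edgeR adjusted p = 0.0506. This value sat at the threshold and crossed it with the settings: the adjusted p was 0.0493 with RLE scaling, 0.0459 with no filter, 0.0484 in limma-voom and 8.06e-04 in DESeq2. Without WT replicate 4 the log2 fold change was -1.52 (edgeR adjusted p = 8.34e-04). Without any 1 of the other libraries the edgeR adjusted p lay between 0.0680 and 0.152, and with 1 surrogate variable the log2 fold change was -0.48 (edgeR adjusted p = 1). Markers of Kupffer cells, the liver macrophages, were also uneven. Their sum over 6 genes was 71.3, 197, 57.9, 34.3, 110.4 and 136 CPM in WT replicates 1 to 6 and 28.9, 55.8, 60.0 and 45.5 CPM in KO. WT replicate 4 was the lowest WT library and lay inside the KO range, as for Eif6, and WT replicate 3 lay inside it too. None of these markers was called or at 0 in all libraries, and their part in the Eif6 and Eif3b levels was not tested.

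Levels of different genes can be compared only per length, here as CPM per kilobase of merged exons in GENCODE M21. In WT Eif5a was highest, at 174 ± 25.3, followed by Eif1 at 142 ± 26.2. Eif3g (57.2 ± 8.41), Eif3h (56.7 ± 2.90), Eif5 (55.2 ± 11.4) and Eif4a1 (54.5 ± 8.74) came next and did not differ from each other beyond their spread. In KO the order began with Eif5a (128 ± 19.5), Eif1 (111 ± 31.6), Eif4a2 (56.5 ± 4.40) and Eif3h (54.4 ± 3.35). Eif4a1 was above Eif4a2 in the WT means (54.5 ± 8.74 and 42.2 ± 12.2) and below it in the KO means (41.6 ± 3.35 and 56.5 ± 4.40). Eif6 took the place 10 of 54 located members in WT (33.8 ± 12.6) and place 25 in KO (13.1 ± 2.86). The kinases were the lowest full group, from 1.83 ± 0.680 for Eif2ak4 to 4.64 ± 0.815 for Eif2ak1 in WT. Of the EIF4E family Eif4e reached 9.79 ± 2.10 in WT, while the inhibitors Eif4ebp3, Eif4ebp1 and Eif4ebp2 were at 22.5 ± 14.1, 21.6 ± 14.1 and 13.9 ± 2.33. Within EIF3 the subunits other than Eif3j2 ranged from 7.70 (Eif3j1) to 57.2 (Eif3g), although each stands once in the complex. Merged exon length counts exons of every annotated transcript, so genes with long, little used exons come out too low.

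**Figure D4:**
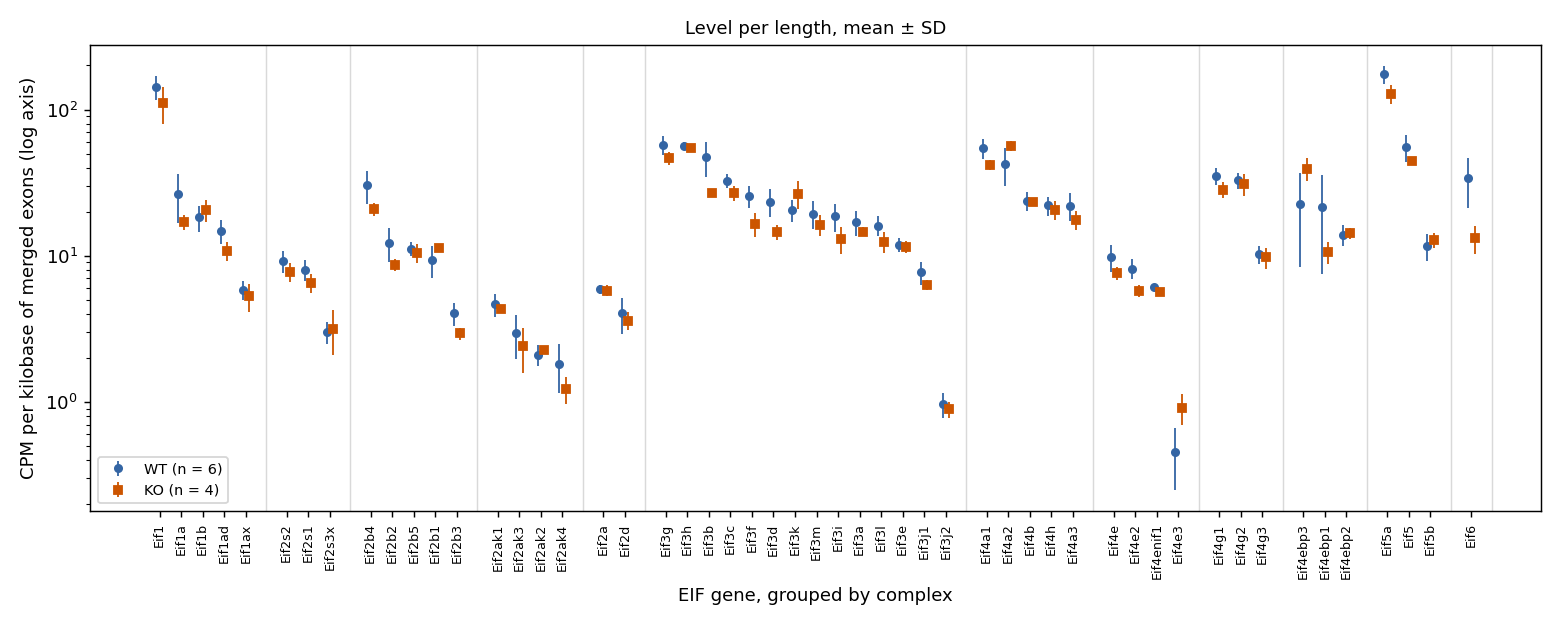
CPM per kilobase of merged exons (y axis, log scale) for the 52 tested EIF genes grouped by complex (x axis), as mean ± SD of 6 WT and 4 KO libraries. Eif5a and Eif1 are highest in both groups, the 4 kinases form a low group, and Eif4a1 and Eif4a2 change places between WT and KO.

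Single libraries differed across many EIF genes at once. The summed level of the 52 genes was 4845 ± 446 CPM in WT and 4079 ± 340 in KO. The WT libraries ran from 4195 CPM (replicate 4) to 5344 and 5346 CPM (replicates 1 and 2), and the KO libraries were at 4312, 3808, 3766 and 4428 CPM. WT replicate 4 alone lay inside the KO range. It was the lowest WT library for 25 of the 52 genes, while WT replicates 1 and 2 held the highest level of all 10 libraries for 13 and 15 genes. Among the KO libraries replicate 1 was highest for 23 genes and replicate 3 lowest for 25. Mitochondrial transcripts took 16.5% of counts in KO replicate 1, 22.2% in replicate 2, 30.5% in replicate 3 and 19.4% in replicate 4, so the 2 KO libraries with the lower EIF sums had the higher mitochondrial shares. In WT the order was different: replicate 5 had the highest share (28.9%) and an EIF sum of 4818 CPM, above that of replicate 3 (16.9% and 4582 CPM). The mean share was 21.5% in WT and 22.2% in KO. With mitochondrial genes left out before scaling, an alternative chosen after the data had been seen, the median log2 fold change of the EIF genes was -0.27, and 42 of 52 were below 0.

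**Figure D5:**
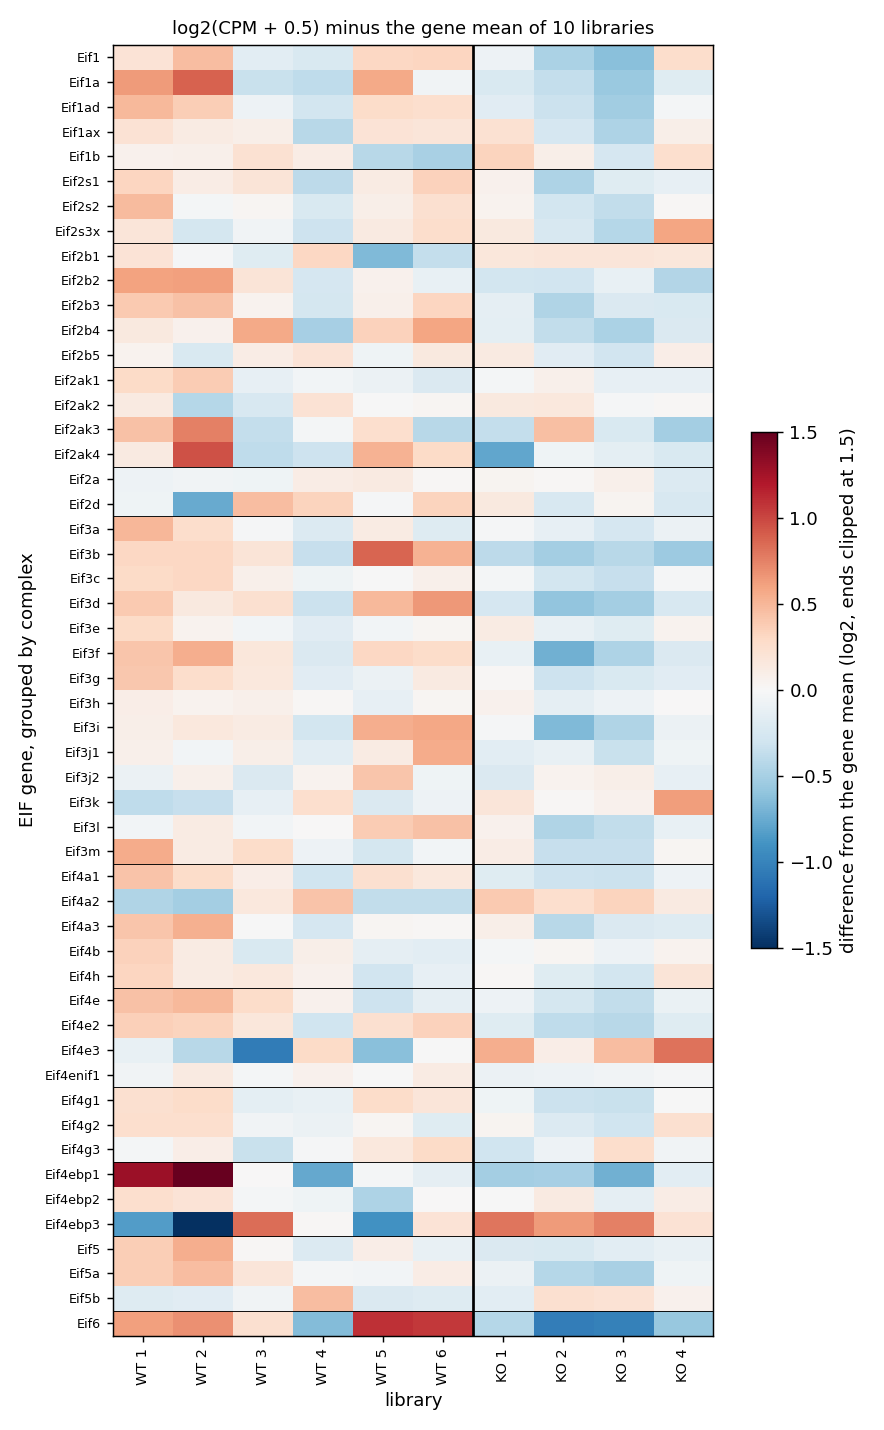
Log2(CPM + 0.5) of each of the 52 tested EIF genes (rows, grouped by complex) in each library (columns), minus the gene's mean over 10 libraries. Red is above and blue below the mean, with colours clipped at 1.5. WT replicates 1 and 2 are mostly red, KO replicates 2 and 3 mostly blue, and Eif4a2, Eif3k, Eif4e3 and Eif4ebp3 run the other way.

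The median coefficient of variation over the 52 EIF genes was 18.1% in WT and 12.5% in KO, against 29.4% and 16.9% over all tested genes. The highest WT values were those of Eif4ebp1 (65.5%), Eif4ebp3 (62.5%) and Eif4e3 (45.0%), and the lowest those of Eif3h (5.12%), Eif4enif1 (5.61%) and Eif2a (6.51%).

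Other genes of the pathway were counted in 5 lists, to be read against all tested genes, of which 0.767% were called lower and 0.563% higher, and 14.4% were lower and 11.6% higher at an unadjusted p under 0.05. Of 16 elongation and termination factors 0 were called, with 3 lower in KO at an unadjusted p under 0.05 and a median log2 fold change of -0.15. The smallest p was that of Gspt2, a release factor relative, at 4.03 ± 1.57 CPM in WT and 1.64 ± 0.323 in KO (edgeR adjusted p = 0.0664, and 0.00542 without WT replicate 4). Of 20 partners of the cap complex and the poly(A) tail 1 was called, with 5 lower and 1 higher at an unadjusted p under 0.05 and a median of -0.13. This was Mknk2, a kinase that phosphorylates EIF4E, which fell. Its WT libraries ran from 94.9 to 142 CPM (median 120) and its KO libraries were at 57.5, 56.9, 68.5 and 91.3 CPM, without overlap (log2 fold change -0.81, SE 0.18, edgeR adjusted p = 0.0479).

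Of 11 tested partners of EIF2 phosphorylation, such as phosphatase subunits and GCN2 activators, 0 were called, with 2 lower at an unadjusted p under 0.05 and a median log2 fold change of -0.21. Impact, an inhibitor of GCN2, had the smallest p, at 44.0 ± 9.17 CPM in WT and 26.9 ± 4.92 in KO (edgeR adjusted p = 0.0654, and 0.00688 without WT replicate 4). Of 16 tested factors and targets of the integrated stress response, the programme that EIF2 phosphorylation sets off, 2 were called lower. Another 10 were lower and 2 higher at an unadjusted p under 0.05, and the median log2 fold change was -1.48. The called genes were Sesn2, a nutrient sensor (16.3 ± 8.60 CPM in WT, 3.93 ± 0.929 CPM in KO), and Psat1, a serine synthesis enzyme (36.6 ± 28.0 and 1.82 ± 0.276 CPM), both with edgeR adjusted p = 0.0440. The groups did not overlap for Sesn2, and for Psat1 they overlapped through WT replicate 4, at 1.91 CPM. Of 19 tested genes of mTORC1 signalling 0 were called, with 3 lower and 1 higher at an unadjusted p under 0.05 and a median of -0.08. Deptor, an mTOR inhibitor, was the higher one, between 6.65 and 24.7 CPM in WT (median 14.2) and at 34.9, 39.6, 26.9 and 44.4 CPM in KO (log2 fold change 1.23, SE 0.28, edgeR adjusted p = 0.0541), without overlap. Deptor did pass without WT replicate 4 (edgeR adjusted p = 0.00354), with no filter (0.0461), in DESeq2 (adjusted p = 0.00322) and in limma-voom (adjusted p = 0.0426). It did not pass with RLE scaling (edgeR adjusted p = 0.0534), upper-quartile scaling (0.0550) or a replicate block (0.131). Without any 1 library other than WT replicate 4 it did not pass either (edgeR adjusted p between 0.0522 and 0.152). With 1 surrogate variable its log2 fold change was 0.42. The calls of Mknk2, Sesn2 and Psat1 were lost without any 1 library other than WT replicate 4, with edgeR adjusted p between 0.0552 and 0.151. Without WT replicate 4 the edgeR adjusted p was 0.00514 for Mknk2, 0.00153 for Sesn2 and 3.17e-04 for Psat1. Psat1 was also lost with no filter (0.0738) and in limma-voom (0.113), Sesn2 in limma-voom (0.0523) and Mknk2 with upper-quartile scaling (0.0550), and all 3 with 1 surrogate variable (adjusted p = 1).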

How the data were processed

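Whole-number gene counts per library were deposited by the authors in 1 table of 23056 gene symbols and 10 libraries. The submitters' processing notes name STAR, HTSeq, DESeq2 and mm10; the versions and annotation, and whether counting used strand, are not stated there. All 10 columns were matched to samples by name, and 0 columns were left unused. Counts were scaled by TMM and filtered with filterByExpr by group, and KO was compared with WT over all 13688 remaining genes with edgeR 4.0.16 (quasi-likelihood test, robust) and Benjamini-Hochberg adjustment, at a threshold of 0.05, in R 4.3.3. CPM values were computed here from the deposited counts. The code was tested on simulated data. There the edgeR test recovered 6.12% of genes changed 1.5-fold, 29.2% of those changed 2-fold and 81.6% of those changed 4-fold. Most genes changed 2-fold were missed there, so a gene that was not called may still differ by 2-fold or more. Alternatives used other scalings and filters, DESeq2 1.42.0, limma 3.58.1 (voom), 1 surrogate variable (sva 3.50.0), a replicate block, each library left out, and mitochondrial genes left out (chosen after the data had been seen). The libraries are not tied to named animals, so p-values measure the spread between libraries, which may be technical. Values by library (in WT mostly the lowest, median and highest) were given for the kinases, the 4E-binding proteins and the smallest p of each complex. Such values were also given for Eif3d, Eif3f and Eif4a2, which were picked after the values were seen. Of other lists, called genes or otherwise the smallest p were named. Members and lists were chosen with earlier results of these data known. Exon lengths and positions came from GENCODE M21 (GRCm38), which held 54 of 55 members, and promoters from RefSeq.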

Additional observations from a re-analysis of the deposited data

Results flagged for a closer look

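In 104 groups (52 EIF genes in WT and in KO), 5 held a library whose gap to its nearest neighbour was large against the range of its group. Chance gives about 1 in 20, so 5 of 104 is near the chance share. The groups also share the same 10 libraries and are not independent. WT replicate 4 was the library in 4 of the 5. Eif1ax was at 21.8 CPM there, against 31.0 to 33.9 CPM in the other WT libraries. Eif2s1 was at 27.4 CPM, against 39.2 to 45.9 CPM. Eif4e2 was at 43.1 CPM, against 59.6 to 68.1 CPM. Eif5b was at 162 CPM, above the other WT libraries at 101 to 113 CPM. The remaining library was WT replicate 6, with Eif3j1 at 60.5 CPM against 36.7 to 44.9 CPM.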

How the results depend on the processing

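The number of EIF genes called was 0 with TMM scaling, 1 with RLE scaling, 1 with no filter, 1 in limma-voom, 1 without the robust prior, 1 without mitochondrial genes (Eif6 each time) and 5 in DESeq2, and it ranged from 0 to 16 when libraries were left out in turn. EIF genes without overlap numbered 2, and 1 with upper-quartile scaling (Eif3b was lost), with a range of 2 to 15 when libraries were left out. With 1 surrogate variable 0 of 13688 genes were called and the log2 fold change changed sign for Eif1 (0.0646), Eif1a (0.25), Eif1ax (0.18), Eif2ak1 (0.15), Eif2ak2 (-0.12), Eif2ak3 (0.25), Eif2ak4 (0.21), Eif2b2 (0.0011), Eif3a (0.13), Eif3e (0.12), Eif4a2 (-0.11), Eif4a3 (0.14), Eif4b (0.0595), Eif4ebp1 (0.48), Eif4ebp3 (-0.37), Eif4g2 (0.14), Eif4g3 (0.0249), Eif5 (0.11) and Eif5b (-0.22). The cause was not tested. Upper-quartile scaling turned Eif2a (0.0135) and Eif4b (0.0177). Leaving out libraries in turn gave -0.0555 to 0.0373 for Eif2a (above 0 without KO replicate 4), -0.16 to 0.21 for Eif2s3x (below 0 without KO replicate 4), -0.101 to 0.00819 for Eif3e and -0.0707 to 0.0476 for Eif4b (both above 0 without WT replicate 1 or KO replicate 3), -0.0512 to 0.0826 for Eif4ebp2 (below 0 without WT replicate 5 or KO replicate 2) and -0.17 to 0.0161 for Eif4g3 (above 0 without KO replicate 1). The replicate block called 0 EIF genes and 1 gene in all, with Eif1b at -0.0078, Eif2a at 0.0029, Eif4ebp2 at -0.0657 and Eif4g3 at 0.0294. With the block the calls of Mknk2, Sesn2 and Psat1 were lost (adjusted p 0.147 to 0.149). The labels do not say whether replicate numbers pair the samples, and 4 pairs are too few to settle it. Same-numbered libraries correlated at 0.18, 0.07, -0.03 and -0.02 in their deviations from the group means. KO replicates 1 and 2 but not 3 and 4 correlated best with their own number. Of 1040 values over 52 genes and 20 alternatives, 980 kept direction and side of the threshold, 26 newly passed it and 34 changed sign. Depth limits Eif4e3 and Eif3j2, with 236 and 309 counts in all.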
